A study of Mus musculus with 12 samples.

Results

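The 10 genes described here are the co-receptors that hand lipopolysaccharide (LPS) to Toll-like receptor 4 (Cd14 and Ly96), the 4 adapters that dock on the receptor's cytoplasmic side (Myd88, Tirap, Ticam1 and Ticam2) and the 4 interleukin-1 receptor-associated kinases (Irak1, Irak2, Irak3 and Irak4). They were chosen by name, as the early steps of LPS sensing, and all 10 were found by symbol among the 21899 genes of the table. RNA sequencing was done on wild-type mouse bone marrow-derived macrophages, primary cells grown from marrow, in 4 groups of 3 libraries. The groups were cells given PgLPS together with CS-PA/CNP, cells given PgLPS alone, cells given CS-PA/CNP alone and control cells given neither. The table heads its columns LM, L, M and C, which were read as these 4 groups by the letters, since the sample labels do not carry them. The labels expand neither abbreviation and give no dose, no time and no order of addition. The series title concerns a hydrogel meant for periodontitis together with hypertension. Each p-value here reflects only how far these libraries differ within a group, which may be technical, since no label ties them to separate animals or cultures.

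CD14 is a surface protein that extracts LPS monomers and passes them to a complex of TLR4 and MD-2, the product of Ly96. The activated receptor recruits TIRAP and MyD88, on which IRAK4 and then IRAK1 or IRAK2 assemble into a signalling complex called the Myddosome, while a second route through TRAM (Ticam2) and TRIF (Ticam1) leads to type I interferon. IRAK3, also called IRAK-M, is found mainly in monocytes and macrophages, is known as a brake on this pathway and is induced during LPS tolerance.

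The libraries held between 14992707 and 20082900 counted reads, and 11656 genes passed the filter on low counts, all 10 of the genes among them. Levels are CPM, reads scaled to a common library size adjusted by the trimmed mean of M-values (TMM), and levels of different genes are compared only as FPKM. The FPKM were computed from the deposited counts, lengths and plain library totals, without TMM, so they order and share out genes within a library and are not read as changes between groups. The scaling factors were 0.890 to 0.901 with both agents and 0.853 to 0.875 with PgLPS, and lay above 1 in the other groups. With plain library totals the median log2 change of all genes moved by -0.41 for PgLPS against control and by 0.05 for both agents against PgLPS, so a small change with PgLPS depends on the scaling. Of all called genes the share that rose, under TMM and under library totals, was 50.5% and 21.8% for PgLPS against control, 48.4% and 61.4% for both agents against PgLPS, 54.3% and 41.9% for CS-PA/CNP against control, 51.2% and 20.3% for both agents against CS-PA/CNP, 51.1% and 21.3% for both agents against control, and 47.2% and 63.7% in the interaction. All 8 macrophage markers were detected, with a summed level of 27406 to 28727 CPM with both agents, 27348 to 29577 CPM with PgLPS, 22567 to 24162 CPM with CS-PA/CNP and 19871 to 21219 CPM in control. The 7 neutrophil markers summed to 160 to 181, 199 to 225, 93.8 to 133 and 120 to 145 CPM in the same order, and the 6 stromal markers to 2.18 to 4.49, 5.88 to 53.6, 0.552 to 2.10 and 0.472 to 2.71 CPM, the highest being library 1 of PgLPS. The dendritic cell markers summed to 3.76 to 4.95, 1.95 to 4.19, 0.809 to 1.07 and 0.905 to 1.40 CPM in the same order of groups. No library exceeded 11.99 CPM summed over T cell, B cell or dendritic cell markers, and Cd3d and Cd8a were at 0 throughout. Without library 1 of PgLPS, 9 of the 10 genes still rose and 1 fell with PgLPS against control, and 4 fell with both agents against PgLPS. The macrophage, neutrophil, stromal and dendritic cell sums did not overlap between PgLPS and control, and with both agents every neutrophil and stromal sum was below every PgLPS library. The markers within a list did not all move together. Cd68 (1081 to 1295 CPM with PgLPS, 1398 to 1568 CPM in control) and Mrc1 were lower with PgLPS, and the other macrophage markers were higher. The neutrophil markers Ly6g, Mpo and Elane had at most 1.73 CPM in any library. All dendritic cell markers but Xcr1 had at most 0.600 CPM. The part of these markers in the results below was not tested. In bulk samples a change in the share of a cell type and a change in RNA per cell cannot be told apart.

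Among the promoters, 3 are shown because their genes moved apart in these libraries: Irak3, which rose with PgLPS more than any other of the 10 genes, Myd88, the adapter that rose most, and Irak1, the one gene that fell. Each window runs from 250 bases before to 50 bases after the RefSeq start on the strand of the gene (build GRCm38.p6), at chr10:120201548-120201847 (minus strand), chr9:119339969-119340268 (minus strand) and chrX:74023872-74024171 (minus strand).
Irak3: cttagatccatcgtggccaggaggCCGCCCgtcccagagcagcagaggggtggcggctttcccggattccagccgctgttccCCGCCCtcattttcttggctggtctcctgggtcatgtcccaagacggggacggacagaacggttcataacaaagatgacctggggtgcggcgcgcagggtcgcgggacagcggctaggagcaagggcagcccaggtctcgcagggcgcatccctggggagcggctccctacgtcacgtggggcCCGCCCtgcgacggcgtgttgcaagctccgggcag
Myd88: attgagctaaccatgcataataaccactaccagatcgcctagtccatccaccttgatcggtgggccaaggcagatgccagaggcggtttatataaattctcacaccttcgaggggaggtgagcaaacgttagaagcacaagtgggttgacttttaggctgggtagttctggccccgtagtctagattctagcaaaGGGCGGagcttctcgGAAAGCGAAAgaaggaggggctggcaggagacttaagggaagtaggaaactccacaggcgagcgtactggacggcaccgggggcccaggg
Irak1: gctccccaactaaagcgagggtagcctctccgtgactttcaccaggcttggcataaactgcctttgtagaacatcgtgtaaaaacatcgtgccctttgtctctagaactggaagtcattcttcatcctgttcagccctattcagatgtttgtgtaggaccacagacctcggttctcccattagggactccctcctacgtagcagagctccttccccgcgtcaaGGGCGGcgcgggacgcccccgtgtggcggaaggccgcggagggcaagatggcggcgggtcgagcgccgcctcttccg
The capitals mark matches to 4 motifs searched on both strands: a kappaB form (GGG, any 2 bases, then TTTCC), AP-1 (TGANTCA), the core of an interferon response element (GAAA, any 2 bases, then GAAA) and a GC box (GGGCGG). Matches on the other strand read as the reverse complement. No 2 matches overlap in these windows. Of the 10 genes, 7 had an entry that was searched. None of the 7 held the kappaB or the AP-1 letters, which 1.63% and 7.81% of all 32851 RefSeq promoters held. Myd88 was the 1 gene of 7 with the interferon core, GAAAGCGAAA, starting 40 bases before the RefSeq start, a form held by 3.44% of promoters. All 7 held the GC box in at least 1 entry, against 35.7% of promoters. A second Irak3 entry, at another start, held none of the 4 motifs. These matches describe the letters of these windows.

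**Figure D1:**
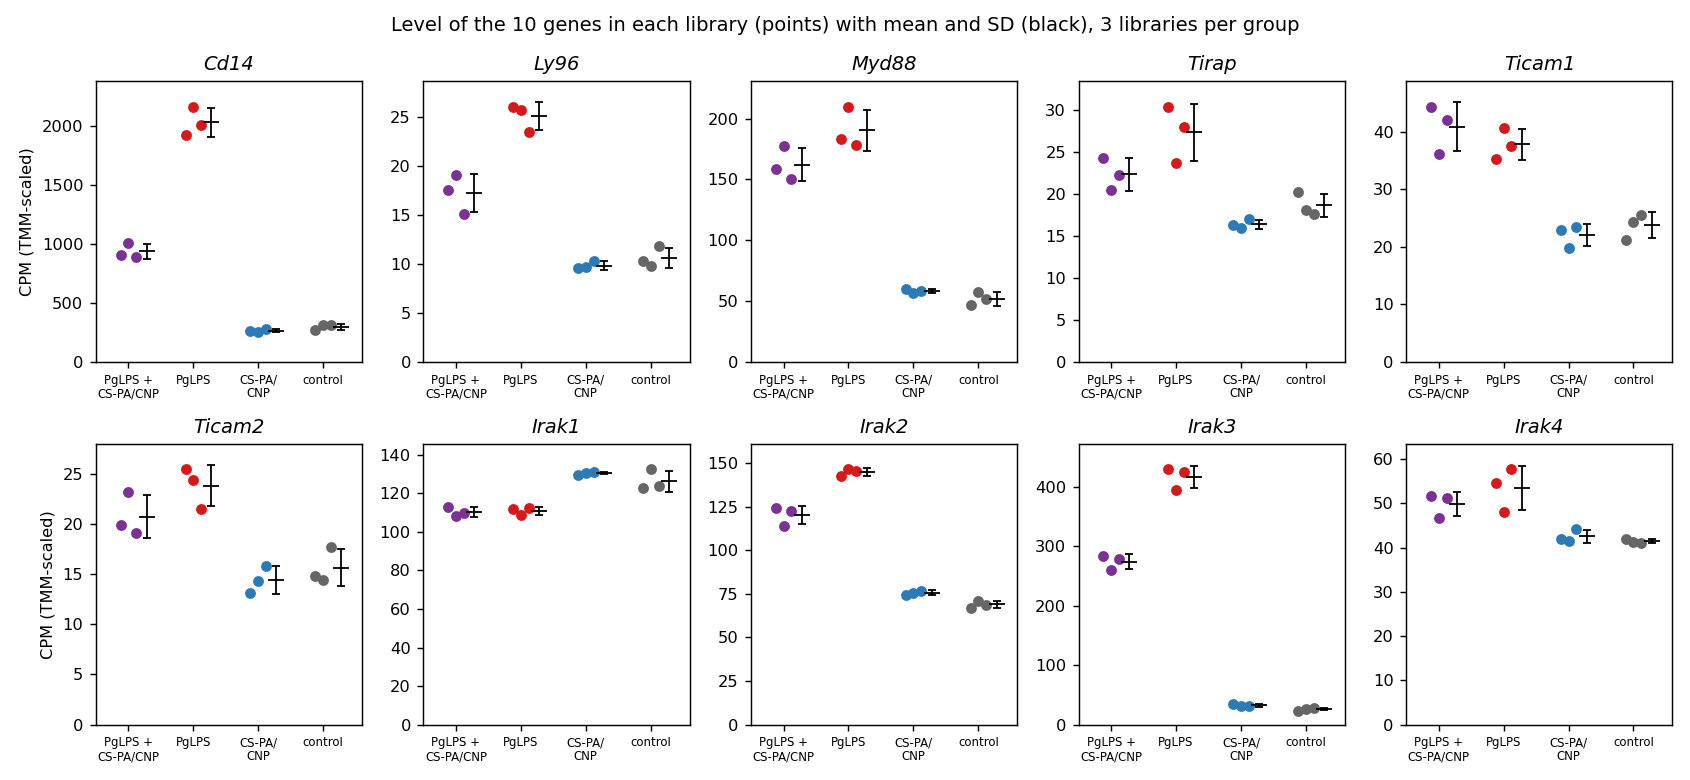
Level of each of the 10 genes in every library, in CPM with TMM scaling on linear axes from 0; points are libraries, and the black bar and whiskers are the mean and SD of 3 libraries per group. Cd14 and Irak3 lie highest in the PgLPS libraries and at intermediate levels in the libraries given both agents, whereas Irak1 lies lower in both PgLPS groups than in the others.

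PgLPS raised 9 of the 10 genes and lowered 1 relative to control, at a Benjamini-Hochberg adjusted p under 0.05 in edgeR's quasi-likelihood test. Over all tested genes 32.2% rose and 31.6% fell (63.8% in all), so most genes moved and the share that rose among the 10 was above the background. The genes were chosen with earlier results of these data known, so this comparison is descriptive only. The median log2 fold change of the 10 genes was 0.87, against -0.00365 over all tested genes. All 10 genes had PgLPS and control libraries that did not overlap, as did 66.4% of all tested genes. With plain library totals the counts were 6 risen and 1 fallen, because Tirap (log2 fold change 0.14, adjusted p = 0.262) and Ticam2 (0.19, adjusted p = 0.141) were no longer called and Irak4 changed sign (-0.05, adjusted p = 0.605). Of all 11656 tested genes, 1945 rose and 6963 fell with library totals.

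Among the co-receptors, Cd14 (ENSMUSG00000051439, chromosome 18) had 1921, 2161 and 2002 CPM in the PgLPS libraries and 269, 311 and 309 CPM in control libraries. The groups lay far apart, and the log2 fold change was 2.77 ± 0.07 (SE), a 6.84-fold difference of means (adjusted p = 7.4e-17). Ly96 (ENSMUSG00000025779, chromosome 1), the gene of MD-2, had 26.1, 25.7 and 23.5 CPM with PgLPS and 10.3, 9.80 and 11.8 CPM in control. It rose by 1.24 ± 0.11 on the log2 scale (adjusted p = 1.4e-08), with the lowest PgLPS library well above the highest control library. Tlr4 itself, the receptor both of them serve, averaged 82.6 ± 15.2 CPM with PgLPS and 70.1 ± 4.94 CPM in control (SD, n = 3 each) and was not called (log2 fold change 0.23, adjusted p = 0.0517 in edgeR, and -0.18 with library totals). Per length, the ratio of Cd14 to Ly96 FPKM was 47.7 ± 3.72 with PgLPS and 16.5 ± 1.88 in control, and that of Tlr4 to Ly96 was 0.606 ± 0.116 with PgLPS and 1.22 ± 0.153 in control (SD, n = 3 each).

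Of the adapters, Myd88 (ENSMUSG00000032508, chromosome 9) had 183, 210 and 178 CPM with PgLPS and 46.4, 57.9 and 51.9 CPM in control. It rose by 1.87 ± 0.09 on the log2 scale (adjusted p = 6.1e-13), the largest adapter change, and no library of one group reached the other. Ticam1 (ENSMUSG00000047123, chromosome 17), the gene of TRIF, had 35.2, 40.6 and 37.5 CPM with PgLPS and 21.2, 24.3 and 25.6 CPM in control. Its rise was 0.67 ± 0.10 (adjusted p = 1.2e-05), with separate groups. Tirap (ENSMUSG00000032041, chromosome 9), which bridges the receptor and MyD88, had 30.4, 23.7 and 28.01 CPM with PgLPS and 20.2, 18.1 and 17.6 CPM in control, a log2 change of 0.55 ± 0.11 (adjusted p = 1.6e-04). Ticam2 (ENSMUSG00000056130, chromosome 18), the gene of TRAM, had 25.5, 24.4 and 21.5 CPM with PgLPS and 14.8, 14.4 and 17.7 CPM in control, a log2 change of 0.60 ± 0.12 (adjusted p = 1.6e-04). In the deposited coordinates Ticam2 shares 14299 bases on the same strand with Tmed7. The whole of Myd88 (5478 bases) lies within Slc22a14 on the same strand. How the counting treated reads shared by such a pair is not known. On the opposite strand Myd88 also shares 1736 bases with Acaa1a, and Tirap 117 bases with Srpr. Tmed7 itself changed by 0.19 ± 0.06 (adjusted p = 0.0155), and by -0.23 with library totals.

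The kinases moved in different directions. Irak3 (ENSMUSG00000020227, chromosome 10) had 429, 395 and 425 CPM with PgLPS and 23.6, 26.1 and 27.3 CPM in control, a 16.2-fold difference of means with no overlap (log2 fold change 4.02 ± 0.08, adjusted p = 5.7e-19). Irak2 (ENSMUSG00000060477, chromosome 6), which sustains signalling after IRAK1, had 143, 146 and 146 CPM with PgLPS and 67.0, 71.2 and 68.7 CPM in control. It rose by 1.07 ± 0.06 (adjusted p = 9.6e-12), and its groups were tight and separate. Irak4 (ENSMUSG00000059883, chromosome 15), the kinase that starts the complex, had 54.6, 47.9 and 57.7 CPM with PgLPS and 42.0, 41.2 and 41.1 CPM in control. Its rise of 0.37 ± 0.08 (adjusted p = 4.5e-04) holds under TMM scaling and turns under library totals, as given above. Irak1 (ENSMUSG00000031392, chromosome X) had 112, 109 and 112 CPM with PgLPS and 123, 133 and 124 CPM in control, and fell by 0.19 ± 0.06 on the log2 scale (adjusted p = 0.00817). Its fall was larger under library totals, at -0.60. Irak4 shares 3865 bases with Twf1 and Irak3 541 bases with Tmbim4, both on the opposite strand, and the sources used here do not say whether the counting used strand.

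**Figure D2:**
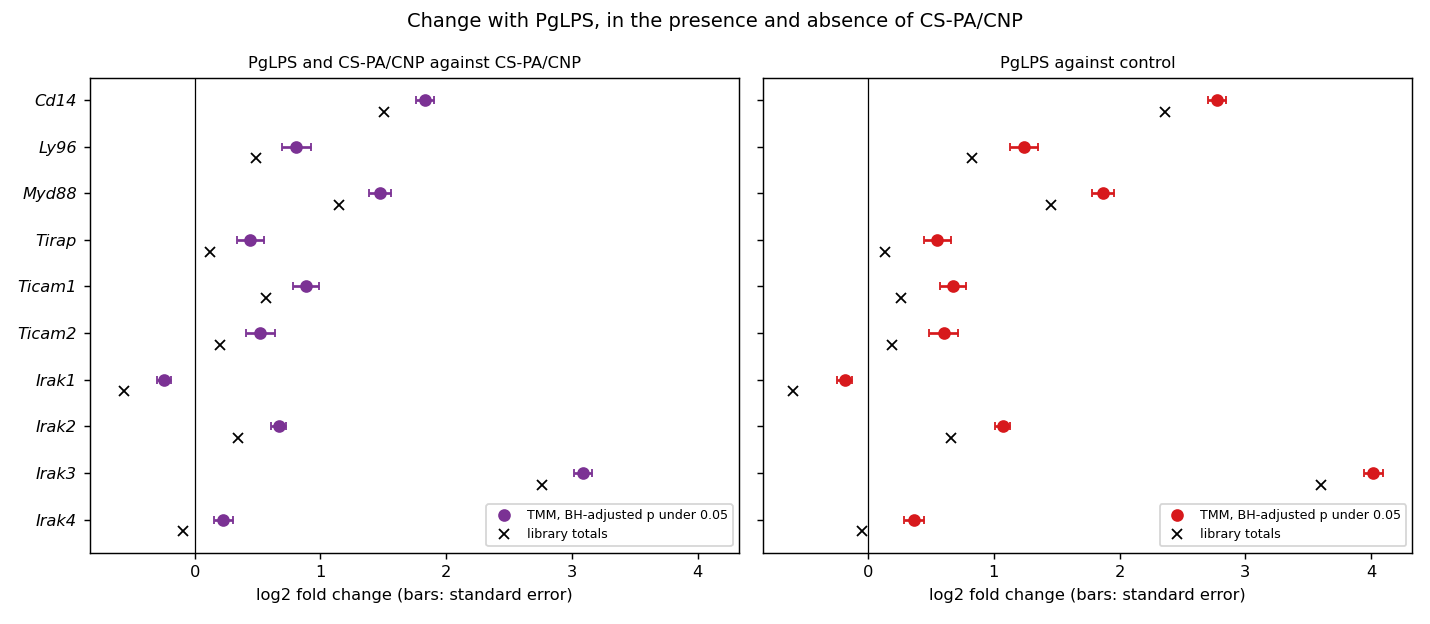
Log2 fold change of each gene with PgLPS, in the presence of CS-PA/CNP (left, against CS-PA/CNP) and in its absence (right, against control); circles with bars are TMM estimates with their standard errors and crosses are estimates with library totals. Every cross lies to the left of its circle, and Irak4 crosses 0 in both panels.

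When PgLPS was given to cells that also had CS-PA/CNP, 9 of the 10 genes rose and Irak1 fell relative to CS-PA/CNP alone, against a background of 26.6% risen and 25.4% fallen genes (51.9% in all). The log2 fold changes were 1.83 for Cd14, 0.81 for Ly96, 1.47 for Myd88, 0.88 for Ticam1, 0.52 for Ticam2, 0.44 for Tirap, 3.09 for Irak3, 0.67 for Irak2, 0.23 for Irak4 and -0.24 for Irak1. The 10 genes did not overlap between the groups, as with 59.6% of all tested genes. Tlr4 rose by 0.55 ± 0.10 in this comparison (adjusted p = 1.6e-04), which with library totals was 0.23 (adjusted p = 0.0645). Against control, both agents together gave 9 genes risen and 1 fallen, where 29.7% of all tested genes rose and 28.4% fell (58.0% in all). The 10 genes had groups that did not overlap, as did 63.1% of all tested genes, and Tirap had the highest adjusted p (log2 fold change 0.26, adjusted p = 0.0457). With library totals 6 of the 10 genes rose and 1 fell in each of these comparisons. Of all 11656 tested genes, 1635 rose and 6413 fell against CS-PA/CNP with library totals, and 1808 rose and 6685 fell against control. These comparisons share libraries with the other comparisons, so their values are given side by side only.

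Addition of CS-PA/CNP to PgLPS lowered 4 of the 10 genes relative to PgLPS alone and raised none, where 10% of all tested genes fell and 9.42% rose (19.5% in all). Raised genes also numbered 0 at an unadjusted p under 0.05 in edgeR and 0 in DESeq2. The 4 were Cd14, Ly96, Irak2 and Irak3, and the median log2 fold change of the 10 genes was -0.25, against -0.00512 over all tested genes. Of the 10 genes, 5 had groups that did not overlap, the fifth being Myd88, compared with 31.4% of all tested genes. The fall of Cd14 was the largest of the 10.

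Cd14 had 908, 1010 and 888 CPM with both agents and 1921, 2161 and 2002 CPM with PgLPS, less than the lowest PgLPS library in every case. This made a mean of 935 ± 65.8 CPM with both agents against 2028 ± 122 CPM with PgLPS (SD, n = 3 each), and the levels with both agents stayed above those of control, at a log2 fold change of 1.66 ± 0.07. Ly96 had 17.6, 19.0 and 15.1 CPM with both agents and 26.1, 25.7 and 23.5 CPM with PgLPS. It fell by 0.54 ± 0.11 on the log2 scale (adjusted p = 0.00143), with no overlap. Tlr4 averaged 83.0 ± 1.99 CPM with both agents and 82.6 ± 15.2 CPM with PgLPS (SD, n = 3 each), a log2 difference of 0.01 ± 0.10 (adjusted p = 0.970 in edgeR). The ratio of Cd14 to Ly96 FPKM was 32.1 ± 2.20 with both agents and 47.7 ± 3.72 with PgLPS (SD, n = 3 each).

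Irak3 had 284, 259 and 278 CPM with both agents and 429, 395 and 425 CPM with PgLPS, and fell by 0.61 ± 0.06 on the log2 scale (adjusted p = 1.3e-06). Its libraries with both agents formed a group between those of PgLPS and those of control. Irak2 had 124, 114 and 123 CPM with both agents and 143, 146 and 146 CPM with PgLPS, a fall of 0.27 ± 0.06 (adjusted p = 0.00251), again with no overlap. Myd88 had 158, 177 and 151 CPM with both agents and 183, 210 and 178 CPM with PgLPS, every library with both agents below every PgLPS library. Its log2 change was -0.23 ± 0.08 with an adjusted p of 0.0583, so it was not called, and it passed the threshold under 4 of 12 alternative settings. Tirap was likewise at -0.29 ± 0.11 (adjusted p = 0.0609) and Ticam2 at -0.19 ± 0.11 (adjusted p = 0.273). Ticam1 (0.11 ± 0.10, adjusted p = 0.503), Irak4 (-0.10 ± 0.08, adjusted p = 0.429) and Irak1 (-0.01 ± 0.06, adjusted p = 0.938) were not called.

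**Figure D3:**
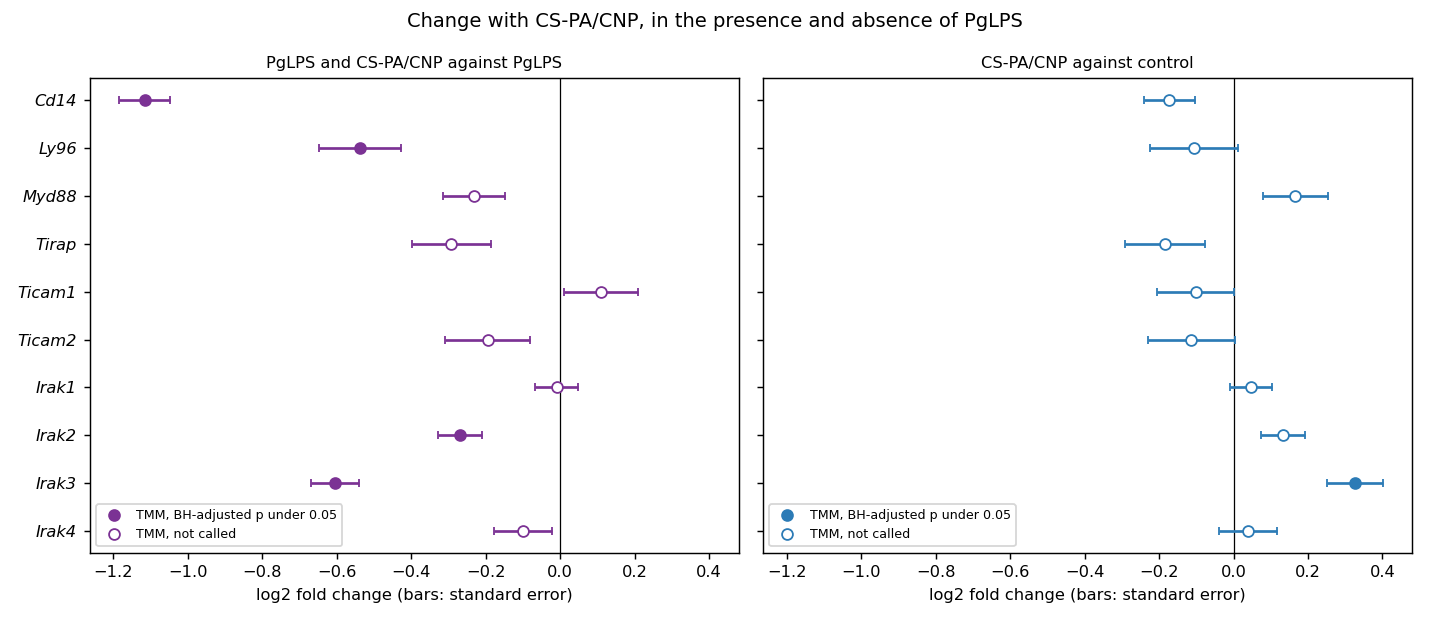
Log2 fold change of each gene with CS-PA/CNP, in the presence of PgLPS (left, against PgLPS) and in its absence (right, against control), with standard errors; filled circles were called at an adjusted p under 0.05 and open circles were not. Cd14, Ly96, Irak2 and Irak3 are filled on the left, whereas Irak3 is the only filled circle on the right.

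Without PgLPS, CS-PA/CNP raised 1 of the 10 genes relative to control and lowered 0 in edgeR (1 at an unadjusted p under 0.05, and 0 in DESeq2). Over all tested genes 6.67% rose and 5.61% fell (12.3% in all), and 31.4% had groups that did not overlap, as 3 of the 10 did (Irak2, Irak3 and Tirap). Irak3 had 34.5, 30.7 and 31.5 CPM with CS-PA/CNP and 23.6, 26.1 and 27.3 CPM in control, with every treated library above every control library, and rose by 0.33 ± 0.07 on the log2 scale (adjusted p = 0.00595). Without library 1 of control its adjusted p was 0.0515, and without library 1 of CS-PA/CNP it was 0.0518. Cd14 had 262, 252 and 275 CPM with CS-PA/CNP and 269, 311 and 309 CPM in control, groups that overlap, at a log2 fold change of -0.17 ± 0.07 (adjusted p = 0.120). Tlr4 averaged 56.6 ± 3.94 CPM with CS-PA/CNP and 70.1 ± 4.94 CPM in control (SD, n = 3 each) at a log2 fold change of -0.31 that was not called (adjusted p = 0.0546 in edgeR), whereas with library totals it was called at -0.35 (adjusted p = 0.0378).

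Whether the change with CS-PA/CNP differed with and without PgLPS was tested as an interaction over the 4 groups, in which 4 of the 10 genes were called lower and none higher, where 8.34% of all tested genes were lower and 7.46% higher (15.8% in all). Higher genes numbered 0 at an unadjusted p under 0.05 in edgeR and 0 in DESeq2. The change was more negative with PgLPS than without it for Cd14 by -0.94 ± 0.10 (adjusted p = 8.2e-07), Irak3 by -0.93 ± 0.10 (adjusted p = 1.3e-06), Irak2 by -0.40 ± 0.08 (adjusted p = 0.00209) and Myd88 by -0.40 ± 0.12 (adjusted p = 0.0296). The value for Myd88 lost its call under library totals (adjusted p = 0.0844) and without any 1 of 8 libraries (adjusted p = 0.0517 to 0.102). Ly96, which fell with both agents, gave -0.43 ± 0.16 (adjusted p = 0.0816) in this test, and Ticam1 gave 0.21 (adjusted p = 0.396).

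Per length, the balance within each family differed between groups. The shares of a family add up to the whole, so a gene that rises lowers the shares of the others. Among the 4 kinase genes, Irak3 held 55.3%, 54.8% and 55.2% of the summed FPKM with both agents, 63.5%, 62.0% and 62.8% with PgLPS, 15.1%, 13.6% and 13.7% with CS-PA/CNP and 11.5%, 11.9% and 12.9% in control. The 4 sets of libraries did not overlap. Irak1 held 17.3 ± 0.47% with both agents, 13.1 ± 0.20% with PgLPS, 44.6 ± 0.38% with CS-PA/CNP and 46.5 ± 0.76% in control (SD, n = 3 each). Irak1 averaged 111 CPM with PgLPS and 126 CPM in control. It was the most abundant kinase gene per length in control and CS-PA/CNP libraries, and Irak3 was in both PgLPS groups. The FPKM ratio of Irak3 to Irak1 was 3.18 ± 0.10, 4.81 ± 0.13, 0.317 ± 0.021 and 0.261 ± 0.020 in the groups in that order (SD, n = 3 each). In a 2-sided exact permutation test of 3 against 3 libraries, the smallest p possible is 0.1, and the Irak3 share gave it in all 5 comparisons (0.121 adjusted over 40 share comparisons), so the test could not pass 0.05.

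Among the adapters, Myd88 held 74.2 ± 2.63% of the summed FPKM with both agents, 76.8 ± 1.33% with PgLPS, 63.2 ± 1.24% with CS-PA/CNP and 58.3 ± 2.45% in control (SD, n = 3 each). Its libraries overlapped between both agents and PgLPS and not in the other comparisons. Ticam1 held 16.2%, 13.1%, 20.5% and 22.9% in the groups in the same order, Tirap 5.37%, 5.82%, 9.28% and 11.02%, and Ticam2 4.22%, 4.28%, 6.95% and 7.83%.

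**Figure D4:**
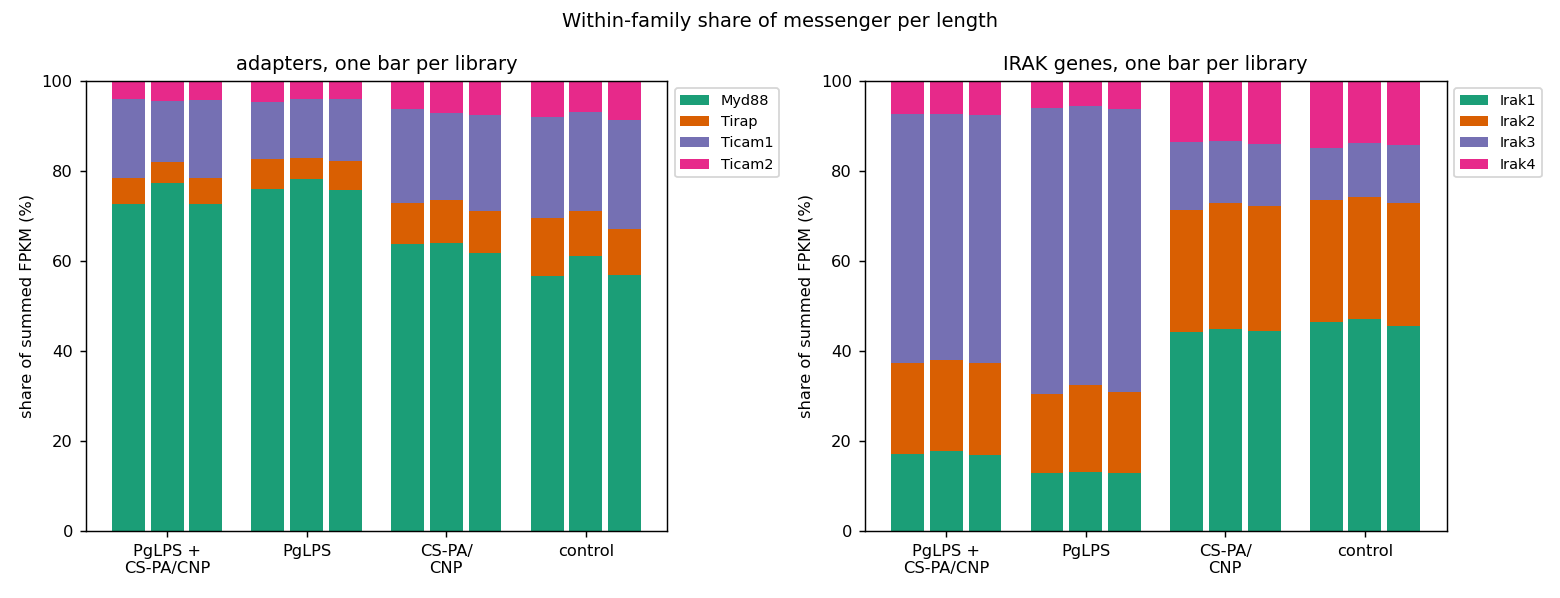
Share of the summed FPKM held by each gene within the adapters (left) and within the kinase genes (right), in percent, 1 bar per library, groups from both agents to control. The Irak3 share is between 54.8% and 63.5% in the libraries with PgLPS and between 11.5% and 15.1% in those without, and the Irak1 share runs the other way.

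In the order of mean FPKM, Cd14 was highest in every group, at 484 ± 31.0 with both agents, 1012 ± 47.6 with PgLPS, 170.1 ± 6.69 with CS-PA/CNP and 197 ± 14.4 in control (SD, n = 3 each). Ticam2 was lowest in every group, at 3.21, 3.55, 2.79 and 3.12 FPKM in that order. In control, Irak1 (30.9 FPKM) followed Cd14, then Myd88 (23.3), Irak2 (18.01) and Ly96 (11.99), with no overlap between neighbours, while Irak4 (9.50), Ticam1 (9.13) and Irak3 (8.04) overlapped with their neighbours in that order. With PgLPS, Irak3 (97.9 FPKM) and Myd88 (63.8 FPKM) came next to Cd14 and separated from each other, and Ly96 (21.3 FPKM) overlapped Irak1 (20.4 FPKM). With both agents no neighbours overlapped, and Irak1 (21.0 FPKM) came before Ly96 (15.1 FPKM).

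Other genes of the same pathway, in 5 lists chosen by role, gave 46 tested of 47 (Ube2v1, with 79 reads in all libraries, did not pass the filter). With PgLPS against control, 32 rose and 6 fell (over all tested genes 32.2% rose and 31.6% fell). With library totals 21 rose and 15 fell, where 1945 rose and 6963 fell of all 11656 tested genes. With both agents against PgLPS, 3 rose and 14 fell (over all tested genes 9.42% rose and 10% fell). Under library totals 4 rose and 11 fell, where 1497 rose and 940 fell of all 11656 tested genes. Without library 1 of PgLPS the counts were 29 and 7 of 47 for PgLPS and 3 and 12 of 47 for both agents against PgLPS.

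Among receptors and LPS handling genes, 6 of 10 rose and 2 fell with PgLPS (4 and 3 with library totals), with log2 fold changes of 2.93 for Tlr1, which pairs with TLR2, 1.52 for Itgam, an integrin of macrophages, and -0.91 for Cd36, a scavenger receptor. With both agents against PgLPS, 2 rose (Cd36 0.74 and Cd180 0.64, a relative of TLR4) and 3 fell, namely Tlr2 (222 CPM with both agents and 448 CPM with PgLPS), Itgam (-0.28) and Tlr1 (-0.28). Tlr2 averaged 118 CPM with CS-PA/CNP alone and 62.7 CPM in control. Of the list of chaperones and traffic genes, which also holds the signalling adapter Pik3ap1, 5 of 6 rose with PgLPS. Among them were Pik3ap1 (1.21), Rab11a (0.81), Unc93b1 (0.77) and Cnpy3 (0.34). With library totals 3 rose and 2 fell, Hsp90b1 at -0.30 and Tmed7 at -0.23, and Cnpy3 stood at -0.07. With both agents Hsp90b1, the chaperone that folds the receptors, rose by 0.42. With library totals it also rose with CS-PA/CNP alone against control, by 0.52 (adjusted p = 7.4e-06 in edgeR). Rab11a fell by 0.24 with both agents, a call lost without library 1 or library 3 of PgLPS and CS-PA/CNP.

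Of 13 kinase and ubiquitin genes below the Myddosome, 9 rose and 1 (Tab1) fell with PgLPS, and with library totals 5 rose and 3 fell. Peli1, a ubiquitin ligase, rose by 1.76, Map3k8 by 2.09, Tab2 by 0.69 and Ikbkg by 0.59. With both agents, 2 fell, Ikbkb by 0.21 (which missed the threshold with library totals, adjusted p = 0.0509) and Peli3 by 0.59. Of this list 0 fell without library 3 of PgLPS, without library 3 of PgLPS and CS-PA/CNP, or with only the groups compared, 1 fell without library 1 of PgLPS and CS-PA/CNP, and with library totals 1 rose and 1 fell. On the TRIF branch, 7 of 8 rose with PgLPS, among them Ikbke (2.32), Azi2 (1.82), Tank (1.79) and Tbk1 (0.95), the kinase that activates IRF3. With library totals 4 rose and 3 fell. With both agents 3 fell, Tank by 0.54, Tbk1 by 0.25 and Ikbke by 0.19. With library totals 1 fell, Tank, and with only the groups compared also 1.

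Of 9 brakes, genes whose products dampen signalling, 5 rose and 3 fell (Sigirr, Il1rl1 and Sarm1) with PgLPS, and 5 and 1 without library 3 of PgLPS. With library totals 5 rose and 4 fell. Some brakes lay near the filter on low counts. With only the groups compared, 8 were tested for PgLPS, of which 5 rose and 2 fell. For both agents against PgLPS 6 were tested in that setting, of which 4 fell. Socs1 averaged 31.0 CPM with both agents, 82.4 CPM with PgLPS, 1.33 CPM with CS-PA/CNP and 0.944 CPM in control, and Siglece 156, 273, 7.93 and 3.29 CPM in that order. With PgLPS, Tnfaip3, the gene of the ubiquitin-editing enzyme A20, rose by 2.36 and Trafd1 by 2.66. With both agents against PgLPS 5 of the 9 fell, Socs1 by 1.41 ± 0.13, Siglece by 0.81 ± 0.07, Tnfaip3 by 0.51 ± 0.07 and Dok3 by 0.29 ± 0.08 among them (adjusted p = 1.3e-07, 4.1e-08, 3.9e-05 and 0.0125), and 3 fell without library 2 of PgLPS.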

How the data were processed

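RNA of 12 libraries was sequenced, and the authors deposited 1 table of read counts per gene with a gene length, used here as a score in bases. Another 12 per-sample columns were not used. FPKM were computed from the deposited counts, lengths and library totals, in place of deposited FPKM. Per the labels' protocols, size-selected cDNA fragments were read on a NovaSeq instrument. Tools named in the submitters' processing notes, without roles, are DESeq 1.30.0, HTSeq 0.9.1, HISAT2 2.0.5 and cutadapt 1.15. The genome build was not given in the sources used here. Columns are named by a group letter and a number, so libraries are numbered as in the table and not tied to single samples.

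Counts were filtered by filterByExpr, scaled by TMM and tested in edgeR 4.0.16 (R 4.3.3) with a quasi-likelihood fit of all 12 libraries, with Benjamini-Hochberg adjustment over 11656 genes and a threshold of 0.05. Standard errors of log2 fold changes were back-calculated, as the size of the change divided by the square root of the test's F statistic. The code was tested on simulated data. Alternatives were library totals, DESeq2's size factors in edgeR, no filter, only the groups compared, the replicate number as a block, DESeq2 1.42.0 and leaving out each library. The same alternatives for the pathway genes were added after seeing the data. The genes named are the 10 genes and, from each of 5 pathway lists, up to 4 with the smallest adjusted p in PgLPS against control or in both agents against PgLPS, and the 2 nearest in pattern to each of the 10 that varied by at least 1 log2 unit. Tlr4, Sigirr, Il1rl1 and Sarm1 were added after their values were seen. The genes and lists were chosen with earlier results of these data known.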

Additional observations from a re-analysis of the deposited data

Results flagged for a closer look

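The change with CS-PA/CNP differed between cells with and without PgLPS, by the interaction test, in 4 genes. The difference was -0.94 for Cd14, -0.93 for Irak3, -0.40 for Irak2 and -0.40 for Myd88 on the log2 scale. The changes behind them with PgLPS and without it were -1.12 and -0.17 for Cd14, -0.61 and 0.33 for Irak3, -0.27 and 0.13 for Irak2, and -0.23 and 0.17 for Myd88. For Irak3 both changes were called and had opposite signs. Its call with CS-PA/CNP alone was lost without library 1 of control (edgeR adjusted p = 0.0515) or of CS-PA/CNP (0.0518). The other 3 genes had no called change with CS-PA/CNP alone. Myd88 was not called with PgLPS either (adjusted p = 0.0583 in edgeR). Its interaction call was lost under library totals (adjusted p = 0.0844) and in some leave-one-out fits, as given above.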

How the results depend on the processing

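Libraries of the same number were weakly correlated: 4 of 18 same-number correlations exceeded 0.1 (range -0.0680 to 0.224), and 6 of 12 libraries correlated best with their own number. Correlations between different numbers ran from -0.190 to 0.108. With the replicate number as a block, 3935 genes rose and 3874 fell with PgLPS against control, and 3750 and 3683 without it. For CS-PA/CNP against control 1099 rose and 934 fell with the block, and 777 and 654 without it. For both agents against PgLPS 1401 rose and 1504 fell with the block, and 1098 and 1170 without it. Whether the numbers mark a shared source was not tested. With the replicate block, 1 of the 10 genes fell with CS-PA/CNP against control, namely Cd14 (-0.17, adjusted p = 0.0301), as 1 did with library totals (-0.21) and with only the groups compared (-0.17); the cause was not tested. Leaving out 1 library gave 0 to 1 risen and 0 to 1 fallen genes in that comparison, Irak3 losing its call as given above and Cd14 gaining one without library 1 of control (adjusted p = 0.0307, and 0.0301 to 0.290 over all alternatives). With the block, Myd88 (adjusted p = 0.00706) and Tirap (0.0255) were called lower with both agents against PgLPS. With library totals the sign turned for Irak4 with PgLPS (-0.047), with CS-PA/CNP (-0.0026), with both agents against CS-PA/CNP (-0.093) and against control (-0.096), for Tirap with both against control (-0.10), for Irak1 with both against PgLPS (0.042) and in the interaction (0.036), and for Ticam2 in the interaction (0.011). That scaling shifts all genes together. Leaving out 1 library gave -0.026 to 0.0038 for Irak1 with both against PgLPS and -0.17 to 0.0076 for Ticam2 in the interaction. With reads in place of FPKM, not divided by length, the Irak3 share was 49.4% with both agents, 57.3% with PgLPS, 11.5% with CS-PA/CNP and 9.78% in control, and the Myd88 share 65.8%, 68.1%, 52.5% and 47.2%. Tirap with both agents against control lost its call under 8 of 12 alternatives and Irak4 with both against CS-PA/CNP under 5 of 12. The calls of Cd14, Ly96, Irak2 and Irak3 with both agents against PgLPS held under all 12. Pathway genes that fell with both agents against PgLPS numbered 9 with only the groups compared.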

Other observations

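The genes whose pattern over the 12 libraries lay nearest to those of the 10 genes were named by the root mean square difference of log2 CPM, each gene less its own mean. Nearest to Irak2 were App (0.0340) and Pitpnm1 (0.0521), to Myd88 Dbnl (0.0684) and Rasa4 (0.0897), and to Ly96 Tmem38b (0.0744) and Slc44a1 (0.112). Nearest to Irak3 were Dtx2 (0.138) and Ms4a6c (0.142), and to Cd14 Gpd2 (0.174) and Ctsc (0.175). Dtx2 averaged 131.6 CPM with both agents, 198 CPM with PgLPS, 16.4 CPM with CS-PA/CNP and 14.5 CPM in control. The other 5 genes varied by under 1 log2 unit between group means and were given no neighbours.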
